A study of Mus musculus with 8 samples.

Results

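The interferon and nucleic acid sensing genes are 34 genes, listed by function, that detect foreign or misplaced RNA and DNA, pass on the alarm, or act as effectors that interferon switches on. Of these, 32 were read on a transcript cluster with a single gene symbol, among 19938 genes named in that way; Isg15 and Ifi44 were not analysed here. They were measured in round spermatids, early haploid cells of sperm formation, purified on a gradient from testes of adult C57BL/6 mice. The mice differed at Piwil1, which encodes MIWI, a piRNA-binding protein of male germ cells that can cut RNA. MIWI -/KI mice had 1 null and 1 knock-in allele and MIWI -/- mice 2 null alleles. MIWI +/KI mice had a wild-type allele beside the knock-in, and MIWI +/- mice a wild-type allele beside the null, so every group had at least 1 altered allele. What the knock-in changes is not stated in the labels; the study is known for a MIWI with an altered catalytic site, and its title concerns catalysis and LINE1 silencing. Each genotype had 2 arrays, titled biological replicates, and the number of animals behind an array is not given, so p-values measure the spread between preparations. Piwil1 had log2 intensities of 9.39 and 9.44 in MIWI -/KI, 7.61 and 7.24 in MIWI -/-, 9.41 and 9.55 in MIWI +/KI, and 8.60 and 8.53 in MIWI +/-, lowest in both MIWI -/- arrays.

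Double-stranded and uncapped RNA in the cytosol is bound by the helicases MDA5 (Ifih1) and RIG-I (Ddx58), which signal through MAVS to the transcription factors IRF3 and IRF7. Interferon made in response acts through STAT2 and IRF9 on a shared promoter element, the ISRE, and so raises a broad programme that includes the Ifit, Oas and Mx genes. RNA of retrotransposons can engage the same sensors in other cells, and editing of double-stranded RNA by ADAR is known to keep cellular RNA from doing so.

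The ISRE core, GAAANNGAAA, is a sequence that many members share. In RefSeq promoter windows of 300 bases (250 before to 50 after a start site, build GRCm38.p6), 25 measured members had 31 windows, and 12 of these windows, of 12 members, held it on either strand, against 3.44% of all 32851 windows. Matches may overlap one another. The 6 sites below belong to a kinase, 3 effectors, a sensor and the effector that varied most, whose values follow. Each reads 5′ to 3′ on the strand of the match, with the core in capitals and 8 bases on each side.
Eif2ak2, chr17:78882537-78882562: tccgccggGAAAACGAAAcagaagag
Ifit1, chr19:34640777-34640802: tgagactgGAAAGTGAAActgaagcc
Oas1a, chr5:120907528-120907553: cttctcggGAAATGGAAActgaaaat
Rsad2, chr12:26456555-26456580: tgttttctGAAAATGAAAgttggacc
Ddx58, chr4:40239806-40239831: ggccatagGAAATCGAAActgcctca
Ifitm3, chr7:141010708-141010733: acttctgaGAAACCGAAActgccgca

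Values are RMA intensities on a linear scale, or their log2 where stated, and no order of transcript amounts between genes is read from them. Brightness of clusters is compared as a guide to signal. Array medians lay between 66.6 and 71.8. Over all clusters, MIWI -/KI replicate 1 correlated with MIWI -/KI replicate 2 at r = 0.970, below its 0.988 with MIWI -/- replicate 1. MIWI -/- replicate 2 correlated with MIWI -/- replicate 1 at 0.984 and with MIWI +/KI replicate 2 at 0.986. A fit without MIWI -/KI replicate 1 and MIWI -/- replicate 2 was also run, with 1 array left in each of these genotypes. Where a member passed in it but not with all arrays, its log2 fold change from that fit is given, without a p-value. The MIWI -/KI array it keeps, replicate 2, correlated with the other arrays at r from 0.960 to 0.981, and replicate 1 at 0.970 to 0.988. MIWI -/KI values of that fit rest on replicate 2 alone. Acrv1, an acrosome gene of round spermatids, had log2 intensities between 11.51 and 11.95 in the 8 arrays. Against MIWI +/-, however, 9 of 20 round spermatid genes were lower in MIWI -/KI (3.12% of all named genes) and 10 in MIWI -/- (3.53%). Most members were dim. Of the 32, 20 had a mean log2 intensity below the median of all clusters (6.13), and 17 did not exceed 5.86, the upper quartile of 29 genes typical of other organs, so such a cluster may carry little signal of its own gene.

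Most of the 32 members differed little between genotypes, as most named genes did. Ccl5, a chemokine gene, fell in MIWI -/KI and MIWI -/-, and Adar, an RNA-editing gene, rose in MIWI -/KI, against MIWI +/-; Eif2ak2, a kinase gene, had higher values in both without passing the test. The model was limma on log2 intensity over all 8 arrays, and a gene was called at a Benjamini-Hochberg adjusted p under 0.05 over 35512 clusters. In MIWI -/- against MIWI +/-, 0 members were higher and 1 lower, against 2.60% and 3.53% of all named genes (6.13% in either direction). In MIWI -/KI against MIWI +/-, 1 member was higher and 1 lower, against 3.11% and 3.12% of all named genes (6.23%). These shares of members were close to or below the background.

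The other comparisons gave few calls or none. In MIWI -/KI against MIWI +/KI 0 members were called by limma, against 1.14% of all named genes higher and 1.29% lower (2.43%), with 3 members and 17.9% of all named genes at an unadjusted p under 0.05. In MIWI +/KI against MIWI +/- the count was 0 by limma, against 0.0251% higher and 0.0702% lower (0.0953%), with 1 member and 11.7% of all named genes at an unadjusted p under 0.05. In MIWI -/KI against MIWI -/- it was 0 by limma, against 0% of all named genes, with 1 member and 4.55% at an unadjusted p under 0.05. A pooled comparison set the mean of the genotypes that lack a wild-type allele (MIWI -/KI, MIWI -/-) against the mean of those that carry one (MIWI +/KI, MIWI +/-). It gave 1 member higher and 1 lower, against 4.33% and 3.93% of all named genes (8.26%). Comparisons share arrays, so their values stand side by side and do not check one another.

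The median log2 fold change of the members was 0.00 in MIWI -/- and -0.04 in MIWI -/KI, each against MIWI +/-, beside 0.01 and -0.00 for all named genes. In each of these comparisons 29 of 32 members changed by less than 0.5 on the log2 scale, beside 85.8% and 86.3% of all named genes. For dim clusters, intervals may not bound the change of the transcript itself. The 95% interval of 28 of 32 members lay inside a 2-fold change in either direction, in each comparison. The 4 whose interval reached 2-fold were Ccl5, Ifitm3, Eif2ak2 and Adar, both times. These 4 also had an array range of at least 1 on the log2 scale, whereas 20 of 32 had a range under 0.5. The median range was 0.45 for the members and 0.56 for all named genes.

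**Figure D1:**
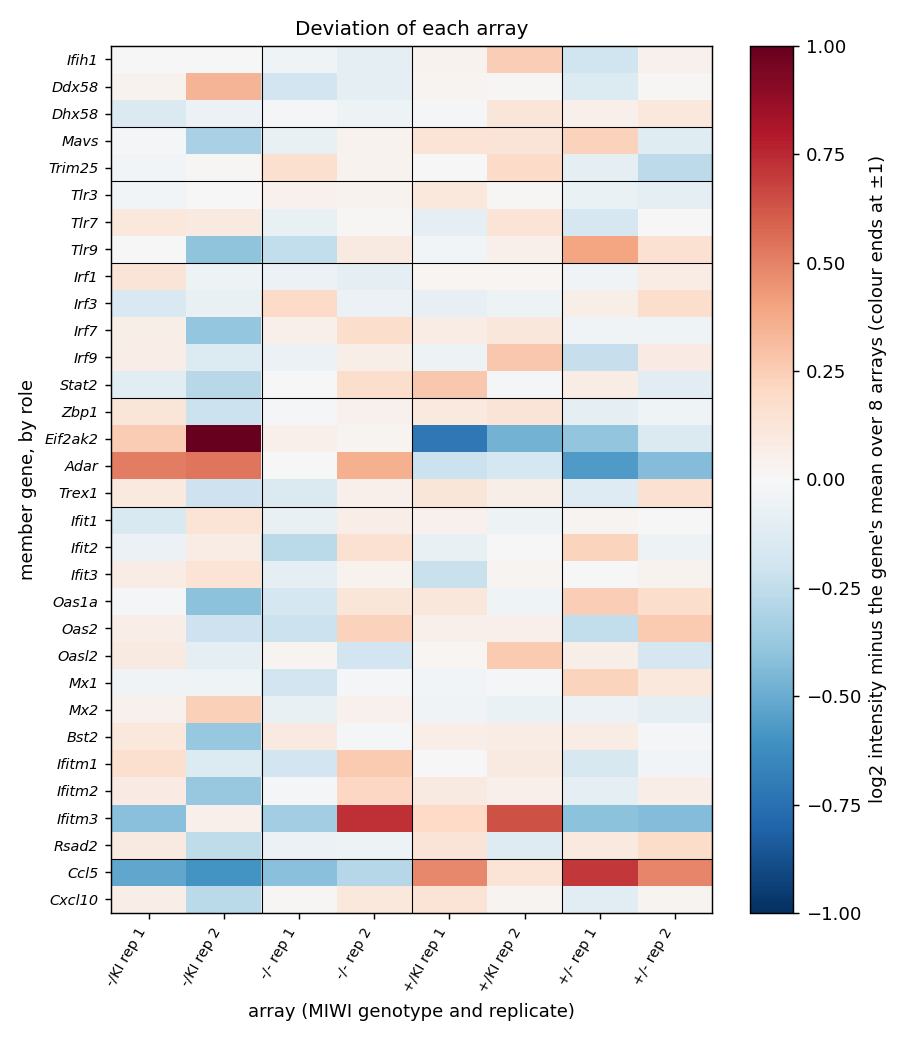
Log2 intensity of each of the 32 members (rows, grouped by role) in each of the 8 arrays (columns, by Miwi genotype), as the difference from the gene's mean over the 8 arrays; colour ends at 1 in either direction, and Eif2ak2 in MIWI -/KI replicate 2 lies beyond it. The 4 members with an array range of at least 1, Ccl5, Adar, Eif2ak2 and Ifitm3, carry the strongest colours.

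Among the sensors of cytosolic RNA no comparison gave a call. Ifih1, the gene of MDA5, which binds long double-stranded RNA, had log2 intensities of 5.05 and 5.05 in MIWI -/KI, 4.998 and 4.95 in MIWI -/-, 5.08 and 5.29 in MIWI +/KI, 4.84 and 5.08 in MIWI +/-. The MIWI -/- arrays lay within the range of the MIWI +/- arrays, and their means differed by 0.01 (SE 0.14, adjusted p = 0.992 by limma). Ddx58, the gene of RIG-I, which binds RNA ends, had intensities of 79.8 and 98.9 in MIWI -/KI, 68.2 and 72.9 in MIWI -/-, 79.7 and 78.7 in MIWI +/KI, and 70.9 and 78.7 in MIWI +/-. The highest array was MIWI -/KI replicate 2, and the log2 fold change of MIWI -/KI against MIWI +/- was 0.25 (SE 0.16, adjusted p = 0.565 by limma). Dhx58, the gene of LGP2, which modulates the other helicases, had intensities between 246 and 295 over the 8 arrays.

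Mavs, the mitochondrial adaptor on which these helicases converge, had intensities of 89.3 and 72.0 in MIWI -/KI, 85.4 and 92.4 in MIWI -/-, 98.9 and 98.6 in MIWI +/KI, and 106 and 82.6 in MIWI +/-. The arrays of MIWI +/- spanned those of most other genotypes, and the log2 fold change was -0.22 in MIWI -/KI against MIWI +/- (adjusted p = 0.687 by limma) and -0.30 against MIWI +/KI (adjusted p = 0.468). Trim25, a ubiquitin ligase that acts with RIG-I, stood at 0.27 in MIWI -/- against MIWI +/- (adjusted p = 0.450 by limma) and was called in none of the 6 comparisons.

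The endosomal Toll-like receptor genes, whose products read RNA (Tlr3, Tlr7) or DNA (Tlr9) taken up into vesicles, were likewise not called. Tlr3 lay between 21.9 and 25.2 in intensity and Tlr7 between 19.4 and 23.9. Tlr9 had intensities of 74.7 and 56.5 in MIWI -/KI, 62.9 and 79.5 in MIWI -/-, 73.5 and 77.5 in MIWI +/KI, and 98.1 and 83.2 in MIWI +/-. The MIWI +/- arrays were the highest, and the log2 fold change of MIWI -/KI against MIWI +/- was -0.47 (SE 0.20, adjusted p = 0.289 by limma). Without MIWI -/- replicate 2 and MIWI -/KI replicate 1 it was -0.68, with 1 array left in each of those genotypes. The pooled difference of Tlr9 in that fit was -0.47.

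The transcription factors of the pathway gave no call with all arrays. Irf3, the factor that MAVS signalling activates, had intensities of 136 and 144 in MIWI -/KI, 174 and 146 in MIWI -/-, 143 and 146 in MIWI +/KI, and 158 and 172 in MIWI +/-. Irf7, itself an interferon target that amplifies the response, had 42.7 and 31.3 in MIWI -/KI, 42.3 and 46.3 in MIWI -/-, 43.1 and 44.3 in MIWI +/KI, and 40.0 and 39.6 in MIWI +/-. Its lowest array was MIWI -/KI replicate 2, and the other 7 lay between 39.6 and 46.3. MIWI -/KI against MIWI +/KI was -0.26 (adjusted p = 0.507 by limma). Without MIWI -/- replicate 2 and MIWI -/KI replicate 1 it was -0.48, with 1 array left in each of those genotypes. Irf9, the DNA-binding partner of the STAT proteins after interferon, had 54.8 and 47.5 in MIWI -/KI, 50.1 and 54.6 in MIWI -/-, 50.5 and 63.1 in MIWI +/KI, and 44.7 and 55.3 in MIWI +/-. Stat2, whose product joins IRF9, had 65.9 and 58.9 in MIWI -/KI, 70.9 and 80.5 in MIWI -/-, 86.1 and 70.1 in MIWI +/KI, and 75.1 and 66.1 in MIWI +/-. With Irf1, an interferon-inducible activator, these 5 genes had log2 fold changes of -0.10 to 0.15 in MIWI -/- and of -0.23 to 0.04 in MIWI -/KI, each against MIWI +/-.

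The 13 measured effectors gave no call in any of the 6 comparisons with all arrays. They block translation of foreign RNA (Ifit1, Ifit2, Ifit3), sense double-stranded RNA to start its decay or are related to genes that do (Oas1a, Oas2, Oasl2), trap or inhibit viral particles (Mx1, Mx2, Bst2), make an antiviral nucleotide (Rsad2) or bar virus entry at membranes (Ifitm1, Ifitm2, Ifitm3). Ifit1, strongly induced by interferon in many cells, had intensities of 24.5 and 29.9 in MIWI -/KI, 25.9 and 28.6 in MIWI -/-, 28.0 and 26.3 in MIWI +/KI, and 27.9 and 27.4 in MIWI +/-. Arrays of all genotypes were intermixed, and the log2 fold change was -0.02 in MIWI -/- and -0.03 in MIWI -/KI, each against MIWI +/-. Leaving Ifitm3 aside, the 95% intervals of the effectors ran from -0.66 to 0.58 on the log2 scale in MIWI -/- and from -0.85 to 0.55 in MIWI -/KI, each against MIWI +/-.

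Oas1a set the lower end of both ranges. Its intensity was 55.7 and 42.3 in MIWI -/KI, 49.95 and 61.2 in MIWI -/-, 60.9 and 54.6 in MIWI +/KI, and 66.9 and 63.5 in MIWI +/-, with the MIWI +/- arrays highest. The log2 fold change of MIWI -/KI against MIWI +/- was -0.42 (SE 0.18, adjusted p = 0.315 by limma). Without MIWI -/- replicate 2 and MIWI -/KI replicate 1 it was -0.62 and its pooled difference -0.41, with 1 array left in each of those genotypes. Bst2, which tethers viral particles to the cell, stood at -0.21 in MIWI -/KI against MIWI +/KI (adjusted p = 0.631 by limma). Without those 2 arrays Bst2 stood at -0.45.

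Ifitm3, known to block virus entry from endosomes, was the effector that varied most. Its intensity was 65.9 and 91.5 in MIWI -/KI, 69.2 and 146 in MIWI -/-, 101 and 137 in MIWI +/KI, and 66.3 and 65.2 in MIWI +/-. The high arrays were MIWI -/- replicate 2 and both MIWI +/KI arrays, and the MIWI +/- arrays were alike and low. MIWI +/KI stood 0.84 above MIWI +/- on the log2 scale (SE 0.34, adjusted p = 0.396 by limma). This passed when the fit was limited to that pair of genotypes (adjusted p = 0.0417 by limma). Over all settings up to 1553 named genes were called in this comparison, against 19 in the main fit. Without MIWI -/- replicate 2 and MIWI -/KI replicate 1 the difference was again 0.84. Whether losing the wild-type allele acted differently beside a knock-in than beside a null allele was tested as a difference of differences (MIWI -/KI minus MIWI +/KI, less MIWI -/- minus MIWI +/-). It was -1.21 for Ifitm3 (SE 0.49, adjusted p = 0.385 by limma) and 1.11 for Eif2ak2 (SE 0.46, adjusted p = 0.409), and no member passed.

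The related Ifitm1 had intensities of 108 and 88.2 in MIWI -/KI, 85.0 and 116 in MIWI -/-, 97.3 and 103 in MIWI +/KI, and 87.0 and 95.1 in MIWI +/-. Ifitm2 had 73.3 and 53.4 in MIWI -/KI, 68.3 and 80.2 in MIWI -/-, 73.9 and 72.0 in MIWI +/KI, and 64.7 and 72.6 in MIWI +/-. The Ifitm1 arrays of MIWI +/KI lay above those of MIWI +/- without a call, and the other comparisons of Ifitm1 and all those of Ifitm2 overlapped. Cross-hybridisation within this family of similar sequences was not examined. Irf1, Ifitm1 and Ifitm2 had more than 1 cluster, and none of the dimmer clusters was called.

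Adar was the member that rose. It encodes the enzyme that turns adenosine into inosine in double-stranded RNA. Its intensity was 190.0 and 193 in MIWI -/KI, 134 and 170.2 in MIWI -/-, 115 and 118 in MIWI +/KI, and 89.9 and 98.5 in MIWI +/-. No genotype overlapped another, and MIWI -/KI was highest. Against MIWI +/-, Adar was 2.03-fold higher in MIWI -/KI (log2 fold change 1.02, SE 0.17, adjusted p = 0.0127 by limma). In MIWI -/- it stood at 0.68 (SE 0.17, adjusted p = 0.0655 by limma), and MIWI -/KI stood at 0.72 against MIWI +/KI (adjusted p = 0.0837), neither of which passed. In the pooled comparison it rose by 0.70 (SE 0.12, adjusted p = 0.0115 by limma), with sizes from 0.61 to 0.79 over 18 alternatives.

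The calls of Adar were lost when some single arrays were left out, while its size changed less. In MIWI -/KI against MIWI +/- the log2 fold change ran from 0.91 to 1.09 over 19 alternatives. Without MIWI -/- replicate 2 and MIWI -/KI replicate 1, MIWI -/KI against MIWI +/KI was 0.73, beside 0.72 with all arrays. In MIWI -/KI against MIWI +/- the limma call was lost without MIWI +/- replicate 1 (adjusted p = 0.131) or replicate 2 (0.0878), and when the fit was limited to that pair of genotypes (0.0692). The pooled call was lost without MIWI +/- replicate 1 (0.0693) or 2 (0.0527) and without MIWI +/KI replicate 1 (0.0824) or 2 (0.0722).

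**Figure D2:**
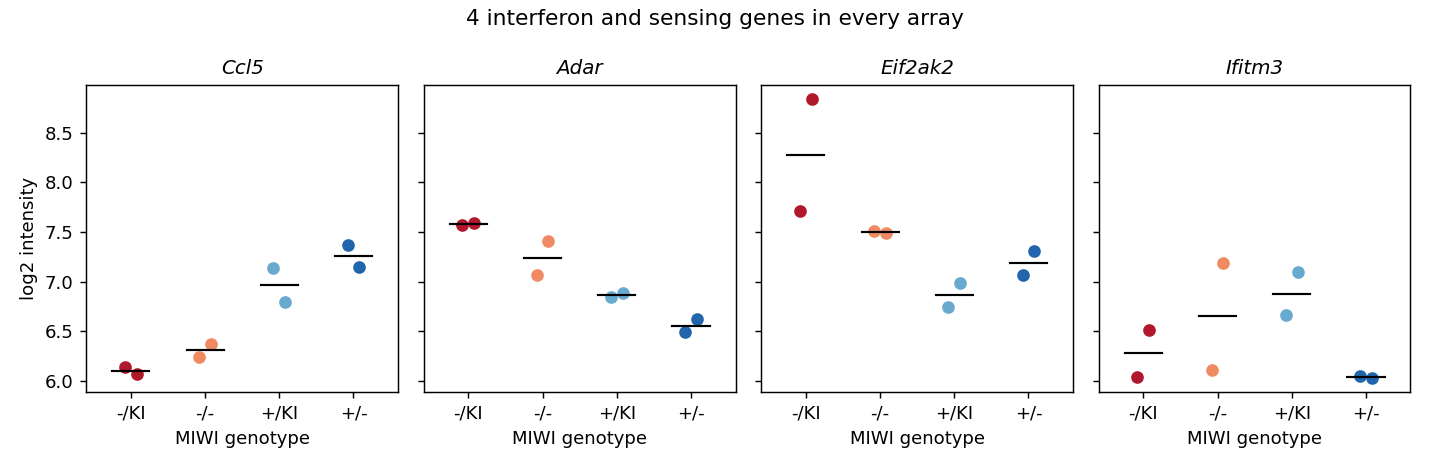
Log2 intensity of Ccl5, Adar, Eif2ak2 and Ifitm3 in the 8 arrays, by Miwi genotype; points are arrays and lines are means of 2 arrays. Ccl5, Adar and Eif2ak2 show no overlap between any of the 4 genotypes, Eif2ak2 is highest in MIWI -/KI replicate 2, and Ifitm3 differs most between the MIWI -/- arrays.

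Eif2ak2 encodes PKR, a kinase that double-stranded RNA activates and that then stops translation through eIF2alpha. Its intensity was 209.5 and 459 in MIWI -/KI, 182 and 179 in MIWI -/-, 107 and 126 in MIWI +/KI, and 134 and 159 in MIWI +/-. All arrays lacking a wild-type allele lay above all arrays carrying one, while the MIWI -/KI arrays differed from each other by 1.13 on the log2 scale. The log2 fold change of MIWI -/KI was 1.42 against MIWI +/KI (SE 0.33, adjusted p = 0.0826 by limma) and 1.09 against MIWI +/- (adjusted p = 0.126). MIWI -/- stood at 0.31 against MIWI +/- (adjusted p = 0.820 by limma). The pooled difference was 0.86 (SE 0.23, adjusted p = 0.0729 by limma), short of the threshold.

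Leaving out either MIWI -/KI array brought the pooled difference of Eif2ak2 past the threshold. Without replicate 2 it was 0.58 (adjusted p = 0.0333 by limma), and without replicate 1, with the high array alone left, 1.15 (adjusted p = 0.00221). MIWI -/KI against MIWI +/- was 0.52 without replicate 2 (adjusted p = 0.210 by limma) and 1.65 without replicate 1 (adjusted p = 0.00447). Without MIWI -/KI replicate 1 and MIWI -/- replicate 2 together, the high array alone was left in MIWI -/KI. MIWI -/KI then stood at 1.65 against MIWI +/- and at 1.98 against MIWI +/KI, and the pooled difference was 1.15.

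Separation of arrays was counted over all members. In the pooled comparison, arrays did not overlap for 2 members that were higher (Adar, Eif2ak2) and 1 that was lower (Ccl5), against 9.38% and 6.54% of all named genes (15.9%). The members' share lay below the background. The same 3 members had no overlap between any of the 4 genotypes, against 3.69% of all named genes. Adar and Ccl5 kept the order MIWI -/KI, MIWI -/-, MIWI +/KI, MIWI +/- downward or upward, against 1.02% of all named genes. The order counted is the one these 2 members showed, so the share describes it and does not test it.

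As Adar and Eif2ak2 both had higher values in mutants, their promoter windows with a match are shown whole. A shortened core, GAAANNGAA, was searched after the full one, which contains it, and 8.56% of all windows hold it on either strand. Of the members' 31 windows, 14 hold it, in 14 of 25 members. Among these 14 only Adar was called with all arrays, beside up to 8.26% of all named genes in a comparison. The shortened core occurs at 2 overlapping places in the Eif2ak2 window and at 2 separate places in the window of the third of 3 Adar starts. The windows of the other Adar starts hold neither form. Capitals mark the shortened core.
Eif2ak2, chr17:78882523-78882822, minus strand: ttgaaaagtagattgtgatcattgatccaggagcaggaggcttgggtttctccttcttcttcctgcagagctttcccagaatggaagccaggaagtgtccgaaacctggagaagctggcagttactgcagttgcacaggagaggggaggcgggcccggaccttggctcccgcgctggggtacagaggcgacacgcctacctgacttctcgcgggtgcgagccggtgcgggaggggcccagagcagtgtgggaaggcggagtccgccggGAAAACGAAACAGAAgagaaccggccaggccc
Adar, chr3:89730468-89730767, plus strand: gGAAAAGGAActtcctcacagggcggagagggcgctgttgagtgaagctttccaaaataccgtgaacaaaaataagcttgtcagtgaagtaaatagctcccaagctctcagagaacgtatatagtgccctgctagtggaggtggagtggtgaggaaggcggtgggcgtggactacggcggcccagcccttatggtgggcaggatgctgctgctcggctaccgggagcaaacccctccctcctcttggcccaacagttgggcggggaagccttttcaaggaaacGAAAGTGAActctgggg

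Members with and without the full core were described separately. Of the 12 with it, 0 were called by limma in any comparison, beside 0% to 8.26% of all named genes, by comparison. Their median log2 fold change was 0.01 in MIWI -/- and -0.04 in MIWI -/KI, each against MIWI +/-. Of the 13 whose windows lacked the full core, only Adar was called, though a window of Adar holds the shortened one. With so few genes, neither count can be set apart from the background share. The medians of these 13 were -0.03 and 0.02 in the same comparisons. Zbp1, a sensor of Z-form nucleic acid, stood at 0.09 in MIWI -/- and 0.02 in MIWI -/KI, each against MIWI +/-. Trex1, an exonuclease that degrades cytosolic DNA, stood at -0.06 and -0.06, and neither gene was called.

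Ccl5 encodes a chemokine that draws T cells and monocytes. Its intensity was 70.4 and 66.9 in MIWI -/KI, 75.7 and 82.9 in MIWI -/-, 141 and 111 in MIWI +/KI, and 165 and 142 in MIWI +/-. The 4 arrays lacking a wild-type allele all lay below the 4 arrays carrying one. Against MIWI +/-, Ccl5 was 2.23-fold lower in MIWI -/KI (log2 fold change -1.16, SE 0.17, adjusted p = 0.00899 by limma) and 1.93-fold lower in MIWI -/- (-0.95, SE 0.17, adjusted p = 0.0211). Against MIWI +/KI, MIWI -/KI stood at -0.87 (SE 0.17, adjusted p = 0.0546 by limma), short of the threshold. The pooled log2 fold change was -0.91 (SE 0.12, adjusted p = 0.00405 by limma), and it passed under each of the 18 alternatives, with adjusted p from 0.00112 to 0.0321. In these bulk samples fewer cells of a type and less RNA per cell cannot be told apart.

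The calls of Ccl5 in single genotypes were lost when some single arrays were left out, while its size changed less. Against MIWI +/-, the log2 fold change ran over 19 alternatives from -1.06 to -0.83 in MIWI -/-. In MIWI -/KI it ran from -1.26 to -0.998. Without MIWI -/- replicate 2 and MIWI -/KI replicate 1, MIWI -/KI against MIWI +/KI was -0.90, beside -0.87 with all arrays. The limma call in MIWI -/- was lost without MIWI +/- replicate 1 (adjusted p = 0.180) or 2 (0.101) and without MIWI -/- replicate 1 (0.0893) or 2 (0.0852). That in MIWI -/KI was lost without MIWI +/- replicate 1 (0.0995) or 2 (0.0565), with array weights (0.0604) and when the fit was limited to that pair of genotypes (0.0526). Cxcl10, a chemokine gene and a classical interferon target, had intensities of 40.5 and 32.1 in MIWI -/KI, 38.9 and 41.6 in MIWI -/-, 42.4 and 39.3 in MIWI +/KI, and 35.9 and 39.5 in MIWI +/-, and its genotypes overlapped.

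Markers of immune cells were set beside the fall of Ccl5. Of 16 measured T and NK cell markers, 0 were called by limma in any comparison. Against MIWI +/-, 2 had an unadjusted limma p under 0.05 in MIWI -/- (18.7% of all named genes) and 2 in MIWI -/KI (18.0%). The summed intensity of the list was 704 to 764 in MIWI -/KI, 694 to 771 in MIWI -/-, 773 to 806 in MIWI +/KI and 735 to 796 in MIWI +/-. Of 21 macrophage markers, 3 were lower in MIWI -/KI (3.12% of all named genes) and 2 in MIWI -/- (3.53%) against MIWI +/-. In both, 0 were higher, beside 3.11% and 2.60% of all named genes. Aif1 stood at -0.997 in MIWI -/KI and -1.10 in MIWI -/-, and the class II gene H2-Aa at -0.97 and -0.73; the other was H2-Ab1 in MIWI -/KI (-1.05). In the pooled comparison 4 macrophage markers were lower and 2 higher, beside 3.93% and 4.33% of all named genes. The lower ones were Aif1, H2-Aa, H2-Ab1 and Cd74, and the higher ones Fcgr3 (0.52) and Cx3cr1 (0.51). The summed intensity of that list was 2527 to 2671 in MIWI -/KI, 2604 to 2668 in MIWI -/-, 2823 to 2918 in MIWI +/KI and 3380 to 3621 in MIWI +/-. The median log2 fold change of the list was -0.02 in MIWI -/KI and -0.01 in MIWI -/-, each against MIWI +/-. Aif1, its brightest gene, had log2 intensities of 9.83 and 9.52 in MIWI -/KI, 9.62 and 9.52 in MIWI -/-, 10.20 and 9.98 in MIWI +/KI, and 10.71 and 10.62 in MIWI +/-. Without Aif1, left out after its values were seen, the list summed to 1762 to 1796 in MIWI -/KI, 1872 to 1879 in MIWI -/-, 1742 to 1814 in MIWI +/KI, 1802 to 1941 in MIWI +/-. The defining macrophage genes Csf1r, Adgre1 and Cd68 had log2 intensities between 5.79 and 6.94. The part of such cells in the values of Ccl5 was not tested.

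Markers of somatic cells of the testis were set beside the members too. Against MIWI +/-, 4 of 17 Sertoli cell genes were lower in MIWI -/KI (Cst12, Aard, Tsx, Defb19), beside 3.12% of all named genes. In MIWI -/- 3 were lower (the first 3 of these), beside 3.53%. In both, 0 were higher, beside 3.11% and 2.60%. The log2 fold change was negative for 17 of 17 in MIWI -/KI and 16 of 17 in MIWI -/-, and the list summed to 1609 to 2032 in MIWI -/KI, 1813 to 2160 in MIWI -/-, 2380 to 2853 in MIWI +/KI and 2915 to 3091 in MIWI +/-. Of 7 Leydig cell genes, 0 were called by limma. At an unadjusted p under 0.05 there were 2 in MIWI -/KI (18.0% of all named genes) and 0 in MIWI -/- (18.7%). Their median log2 fold change was 0.62 in MIWI -/KI and 0.32 in MIWI -/-, each against MIWI +/-, and they summed to 795 to 836 in MIWI -/KI, 538 to 1106 in MIWI -/-, 433 to 576 in MIWI +/KI and 480 to 598 in MIWI +/-. The part of these cells in the values of Ccl5, Adar and Eif2ak2 was not tested.

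Markers of germ cell stage also differed where Adar and Ccl5 did. Of 20 round spermatid genes, 9 were lower in MIWI -/KI against MIWI +/- (3.12% of all named genes). In MIWI -/- against MIWI +/-, 10 of them were lower (3.53%) and 1 higher (2.60%). Their summed intensity was 28324 to 29569 in MIWI -/KI, 25391 to 26332 in MIWI -/-, 41072 to 43394 in MIWI +/KI and 50900 to 53083 in MIWI +/-. Of 15 spermatocyte markers, Tex101 and Piwil2 were higher and Syce2 lower in each of these comparisons, and the list summed to 13623 to 15524 in MIWI -/KI, 12751 to 15118 in MIWI -/-, 11575 to 11723 in MIWI +/KI and 11372 to 12344 in MIWI +/-. The part of cell stage in the values of Adar, Eif2ak2 and Ccl5 was not tested.

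**Figure D3:**
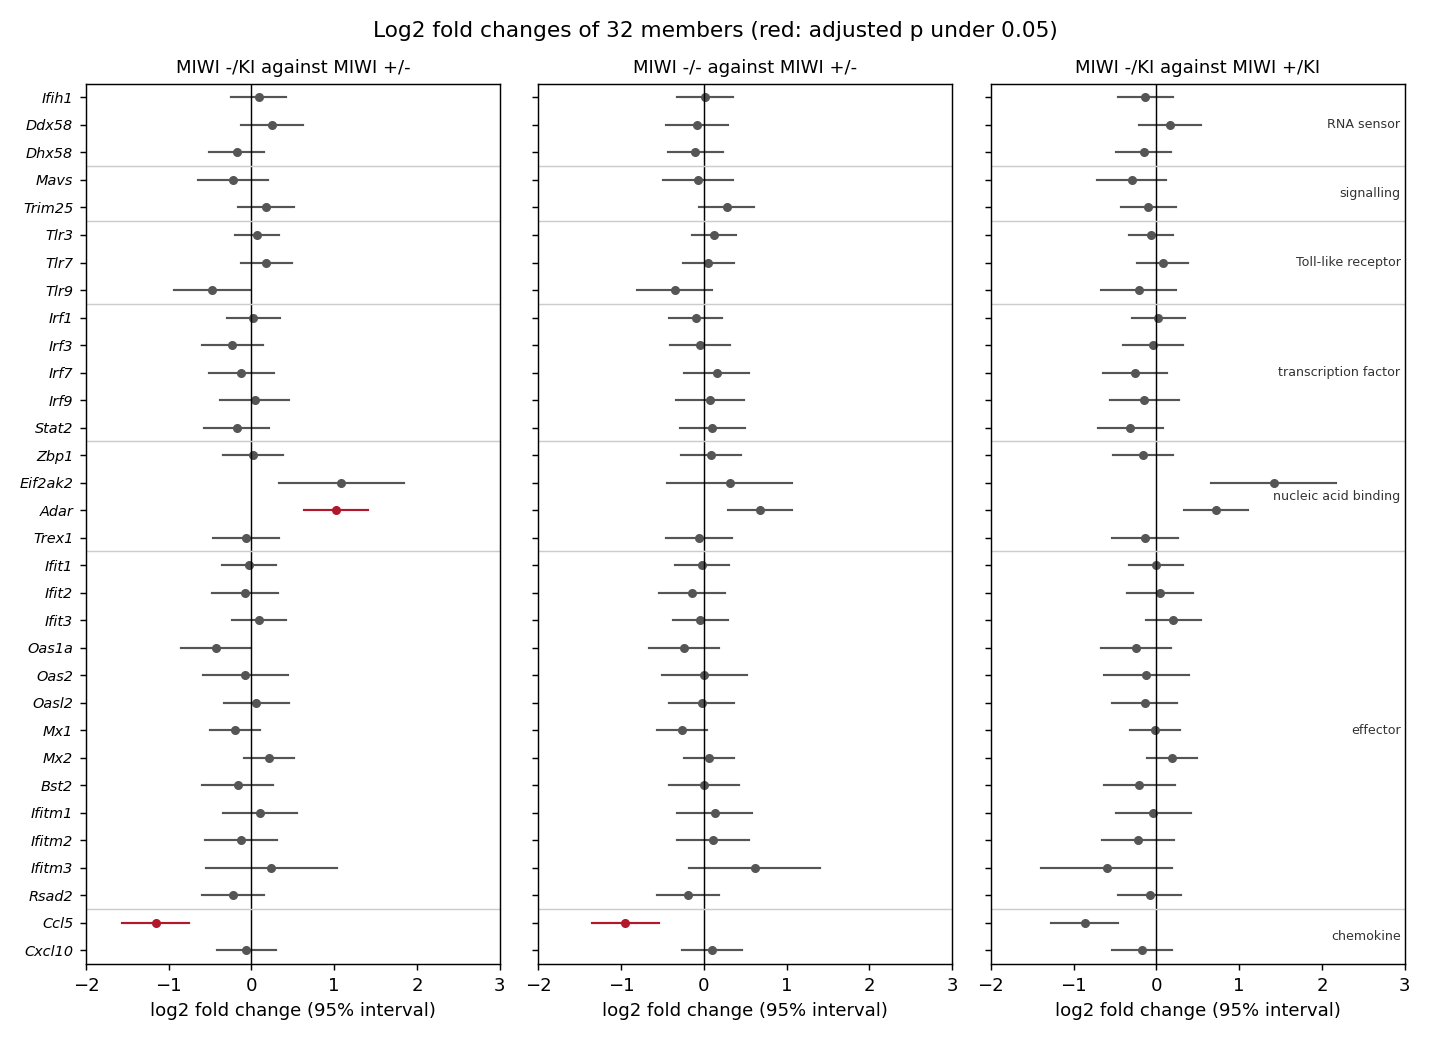
Log2 fold change of each of the 32 members, by role from top to bottom, in MIWI -/KI against MIWI +/-, MIWI -/- against MIWI +/-, and MIWI -/KI against MIWI +/KI; bars are 95% intervals from limma, and red marks adjusted p under 0.05. In each panel 28 of 32 intervals lie inside a 2-fold change (1 on the log2 scale) in either direction; Ccl5 and Adar are marked in the first panel, Ccl5 in the next.

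A wider list of 139 further genes of interferon and nucleic acid sensing, 120 of them measured, included larger changes. Against MIWI +/-, 2 were higher and 2 lower in MIWI -/-, and 4 were higher and 2 lower in MIWI -/KI. In the pooled comparison 5 were higher and 3 lower, and in MIWI -/KI against MIWI +/KI 0 were higher and 1 lower. Counted in either direction, these shares of 120 lay below the background shares of all named genes given above. Limma called 0 in MIWI +/KI against MIWI +/-, with 8 at an unadjusted p under 0.05 (11.7% of all named genes), and 0 in MIWI -/KI against MIWI -/-, with 1 (4.55%). The median log2 fold change of the list was -0.03 in MIWI -/- and -0.01 in MIWI -/KI, each against MIWI +/-.

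Mlkl, the gene of the pseudokinase that breaches the plasma membrane in necroptosis, changed most of this list. Its log2 intensity was 5.09 and 5.18 in MIWI -/KI, 4.94 and 5.12 in MIWI -/-, 7.73 and 8.08 in MIWI +/KI, and 8.10 and 8.37 in MIWI +/-. Both genotypes lacking a wild-type allele were low, far from the others. The log2 fold change against MIWI +/- was -3.10 in MIWI -/KI (SE 0.18, adjusted p = 0.000172 by limma) and -3.20 in MIWI -/- (SE 0.18, adjusted p = 0.000106). Against MIWI +/KI it was -2.77 in MIWI -/KI (adjusted p = 0.000800 by limma), and each of these calls held under all 19 alternatives. Ripk3, the kinase that activates MLKL, stood at 0.25 in MIWI -/KI and 0.17 in MIWI -/- against MIWI +/- and was not called.

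Genes that carry the interferon signal changed in part. Tyk2, a Janus kinase of the type I interferon receptor, had log2 intensities of 7.34 and 7.13 in MIWI -/KI, 7.54 and 7.73 in MIWI -/-, 6.94 and 6.88 in MIWI +/KI, and 6.13 and 5.80 in MIWI +/-. The MIWI +/- arrays were the lowest. Against MIWI +/-, Tyk2 rose in MIWI -/KI by 1.27 (SE 0.18, adjusted p = 0.00615 by limma) and in MIWI -/- by 1.67 (SE 0.18, adjusted p = 0.00151). MIWI +/KI stood 0.94 above MIWI +/- (adjusted p = 0.118 by limma) and MIWI -/KI 0.33 above MIWI +/KI (adjusted p = 0.410), neither past the threshold. The call in MIWI -/- held under all 19 alternatives, and that in MIWI -/KI was lost without MIWI +/- replicate 2 (adjusted p = 0.0734 by limma) and when the fit was limited to that pair of genotypes (0.0502). Jak1, another Janus kinase of that receptor, stood at -0.04 in MIWI -/KI and -0.15 in MIWI -/-.

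Among the receptor chains, Ifngr2 and Ifnar1 were called. Ifngr2, a chain of the interferon gamma receptor, fell, with a log2 fold change of -0.70 in MIWI -/KI (SE 0.15, adjusted p = 0.0400 by limma) and of -0.75 in MIWI -/- (SE 0.15, adjusted p = 0.0324) against MIWI +/-. Ifngr1, the other chain, stood at -0.31 and -0.39 in these comparisons without passing. Ifnar1, a chain of the type I receptor, was named after its values were seen. It rose by 0.62 in the pooled comparison (adjusted p = 0.0460 by limma), where Ifnar2 stood at 0.13.

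**Figure D4:**
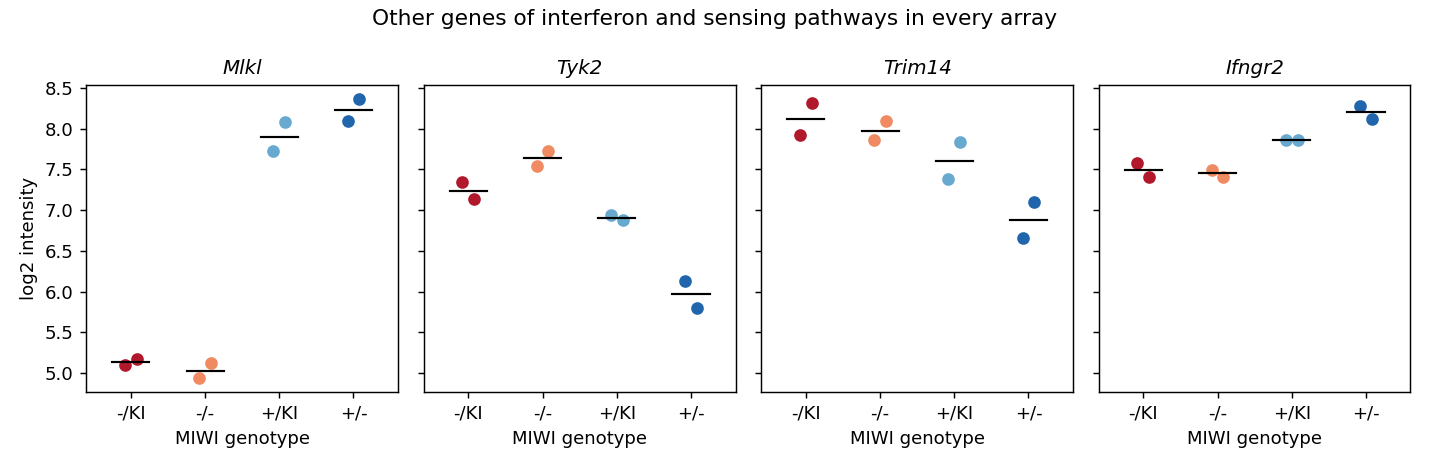
Log2 intensity of Mlkl, Tyk2, Trim14 and Ifngr2, genes of the wider list, in the 8 arrays by Miwi genotype; points are arrays and lines are means of 2 arrays. Mlkl is between 4.94 and 5.18 in arrays lacking a wild-type allele and between 7.73 and 8.37 in the others; Tyk2 and Trim14 are lowest in MIWI +/-, where Ifngr2 is highest.

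Further genes of the wider list rose. Trim14, whose product acts with MAVS, had log2 intensities of 7.92 and 8.32 in MIWI -/KI, 7.86 and 8.09 in MIWI -/-, 7.38 and 7.83 in MIWI +/KI, and 6.66 and 7.10 in MIWI +/-. Against MIWI +/-, it rose in MIWI -/KI by 1.24 (SE 0.24, adjusted p = 0.0260 by limma) and in MIWI -/- by 1.10 (SE 0.24, adjusted p = 0.0431). Ddx41, a helicase gene linked to DNA sensing, rose by 0.74 (adjusted p = 0.0218 by limma) and Stk38, a kinase gene, by 0.99 (adjusted p = 0.0167) in MIWI -/KI against MIWI +/-. In MIWI -/- they stood at 0.56 and 0.73 without passing. Calls of Trim14, Ddx41, Stk38, Ifngr2 and Ifnar1 were each lost without MIWI +/- replicate 2, among other arrays.

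Counts of the wider list moved when single arrays were left out, and so did those of all named genes. No shift particular to the list is read from them. Among fits with 1 array left out, the highest counts of the list came without MIWI -/KI replicate 1. In MIWI -/- against MIWI +/- they came equally without MIWI -/KI replicate 2. Without MIWI -/KI replicate 1 and MIWI -/- replicate 2 together, counts were higher still in the pooled comparison and in MIWI -/KI against MIWI +/- or MIWI +/KI.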

How the data were processed

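RNA of 8 round spermatid preparations was measured on Affymetrix arrays. The deposited values are linear intensities of transcript clusters that the authors made with RMA, per the submitters' processing notes; no version is stated there. In 8 cells of 8 clusters, none of a member, the value was over 100 times the median of its row, and these were treated as missing. Clusters were named through the platform annotation, and each gene was read on its single-symbol cluster of highest mean. Log2 intensities were fitted in limma 3.58.1 (R 4.3.3) with 1 mean per genotype and a variance trend on intensity; degrees of freedom were 4 (residual) and 3.98 (prior). Two-sided p-values were adjusted by Benjamini-Hochberg across the 35512 clusters, at a threshold of 0.05. Arrays were grouped by their titles, and their number limits the precision. The fit was tested on simulated data. Values in every array are given for members that were called, the 3 largest changes of a comparison, members separated by the wild-type allele and central members, and Ifit1, Oas1a, Tlr9 and Cxcl10 were added after their values were seen. Of the wider list the 5 largest called changes are named, with related genes. The members and lists were chosen with earlier results of these data known. Alternatives covered normalization, pseudocount, dim clusters, trend, array weights, cluster choice, replicate block, groups in the fit and arrays left out. Promoter sequences are RefSeq's (GRCm38.p6).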

Additional observations from a re-analysis of the deposited data

How the results depend on the processing

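The count of members called by limma was recomputed under other settings. In MIWI -/- against MIWI +/- (1 as reported) it was 2 with dim clusters removed, without the intensity trend, and with array weights. In MIWI -/KI against MIWI +/- (2 as reported) it was 1 with array weights, 0 with the fit limited to those groups, and 5 without MIWI -/- replicate 2 and MIWI -/KI replicate 1 together. In MIWI -/KI against MIWI +/KI (0 as reported) it was 3 with dim clusters removed, 1 without the trend and 5 without those 2 arrays. In MIWI +/KI against MIWI +/- (0 as reported) it was 1, Ifitm3, with the fit limited to those groups and without those 2 arrays. The pooled count (2 as reported) was 5 without those 2 arrays. With each array left out in turn, the counts ran from 0 to 2 in MIWI -/- against MIWI +/-, from 0 to 3 in MIWI -/KI against MIWI +/- and likewise against MIWI +/KI, and from 1 to 3 in the pooled comparison. They were 0 throughout for MIWI +/KI against MIWI +/- and for MIWI -/KI against MIWI -/-. A lone array was assumed to vary like the other groups. The cause of these shifts was not tested. With the replicate number as a block the counts were unchanged except for the pooled one, which was 3 with Eif2ak2 added (adjusted p = 0.0489 by limma). Deviations of replicate 1 correlated between genotypes with r from -0.26 to 0.30. With 2 arrays per genotype, whether arrays of the same number were prepared together cannot be told from these values. The named genes called ranged over all settings as 375 to 2043 in MIWI -/- and 344 to 4624 in MIWI -/KI against MIWI +/- (1222 and 1243 as reported), 42 to 5749 in MIWI -/KI against MIWI +/KI (485), 0 to 1553 in MIWI +/KI against MIWI +/- (19), 0 to 6 in MIWI -/KI against MIWI -/- (0) and 654 to 5290 in the pooled comparison (1647). No called member changed direction, and of 3403 values of members not called, 149 changed sign, none above 0.37 on the log2 scale. The pooled comparison uses all groups, so no fit limited to fewer was run. Alternatives for genes of the wider list were chosen after seeing the data.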

Other observations

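MIWI -/KI replicate 2 had the lowest value of the 8 arrays for 12 of the 32 members (37.5%), for 34.9% of all named genes and for 19 of 29 genes typical of other organs. It had the highest value for 6 members and for 21.6% of all named genes. MIWI +/KI replicate 2 was the lowest array for 0 members, against 7.91% of all named genes, and the highest for 7, against 9.13%. Genes typical of other organs were alike in this: it was lowest for 0 of the 29 and highest for 6 (20.7%).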
